A study of Sorghum bicolor with 12 samples.

Results

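The response of ribosome footprints to low sulfate was described over the 16514 of 34026 transcripts that held enough footprints to be tested. The tissue was the whole shoot of BTx623, an inbred line of sorghum (Sorghum bicolor). A transcript was kept when its footprint counts passed a standard filter on low counts (a minimum of about 10 counts in at least 3 libraries). The filter tested no difference between treatments, but a transcript near 0 in 1 group could pass only through high counts in the other. Of those left out, 1406 had 10 counts or more in at least 1 library. Ribo-seq sequences the short stretches of mRNA that a ribosome shields from nuclease, so that the number of footprints on a coding sequence reflects both how much mRNA there is and how many ribosomes it carries. The 3 control shoots received nutrient solution with 500 µM sulfate and the 3 low-sulfate shoots received 10 µM in the titles and growth protocol of the labels, whereas the series' design text gives 0 µM. All seedlings were germinated for 5 days and treated for 8 days in vermiculite, and shoots were frozen 13 days after sowing. Each library came from 1 whole shoot, all from 1 inbred line, and footprints of 26 to 34 nt were cut from a gel.

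Plants take up sulfur as sulfate through transporters in the plasma membrane. In plastids, sulfate is activated to adenylyl sulfate, reduced to sulfite and then to sulfide, and built into cysteine, from which methionine and glutathione are made. In Arabidopsis, low sulfate is known to raise the mRNAs of sulfate transporters and of several enzymes of this pathway. The deposited tables carry transcript IDs and no gene names, and 0 of the 34026 IDs were found in the RefSeq gene table for assembly Sorghum_bicolor_NCBIv3, so the transcripts below are given by chromosome (as their IDs number it) and coding length, and none is assigned to this pathway. For the same reason the shoot label could not be checked against marker genes.

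Footprint libraries held 6328659 to 11066815 counts, and 20705 to 22283 transcripts had at least 1 footprint in a library. Correlations of log2 CPM (CPM being the footprint count relative to the scaled library size) ran from 0.9721 to 0.9879 within groups and from 0.9624 to 0.9795 between groups. The 17512 transcripts below the filter held 0.208% to 0.26% of each library's footprints, and 9767 of them had no footprint in any library.

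Few coding sequences were called as different in footprints between low-sulfate and control shoots, and nearly all of those called were higher under low sulfate. Of the 16514 transcripts, 37 passed edgeR's adjusted p threshold of 0.05 (0.224%), 35 of them higher (0.212%) and 2 lower (0.0121%). The 35 that rose had a median log2 fold change of 1.83, or 3.56-fold, and ranged from 0.76 to 6.10. Of these, 32 rose at least 2-fold, 14 at least 4-fold and 11 at least 8-fold. In whole shoots, a change in the number of cells of a type and a change in RNA per cell cannot be told apart. All 37 had control and low-sulfate values that did not overlap, as did 10.9% of all transcripts tested (5.89% with low sulfate higher and 4.97% with it lower). The calls were dominated by rises, but among transcripts at an unadjusted p under 0.05 the numbers were 712 higher and 428 lower.

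**Figure D1:**
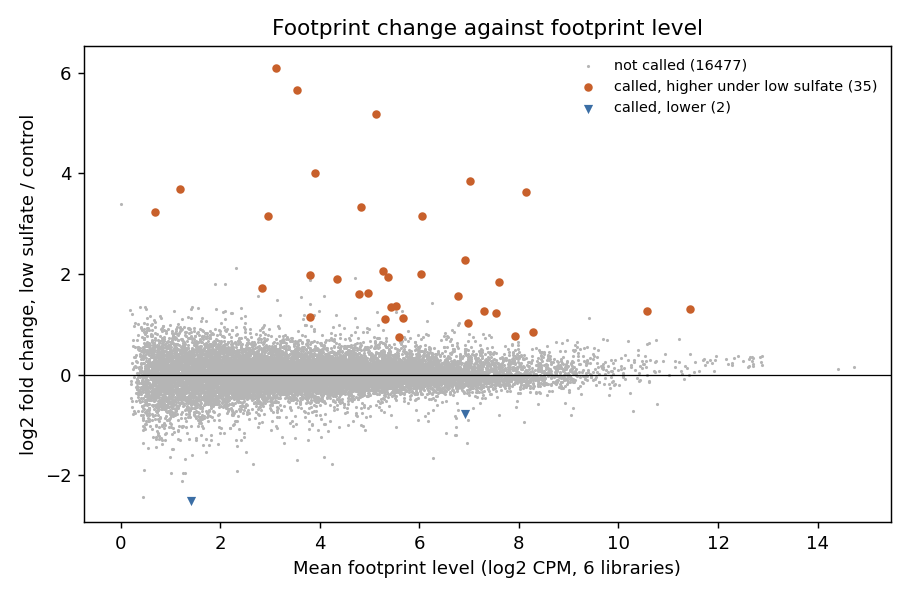
Log2 fold change of footprints (low sulfate over control, vertical) against the mean footprint level in log2 CPM (horizontal) for the 16514 transcripts tested. The 35 called rises (circles) lie above 0 at low and high levels alike, with the steepest at left and centre, and the 2 called falls (triangles) lie below 0.

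The 2 steepest rises were on coding sequences below 1 CPM in control shoots, which passed the low-count filter only through their low-sulfate counts. At such a control level only a transcript that was high under low sulfate could be tested, so a large rise was a condition of entry. Sobic.004G258500.1 (chromosome 4, 930 bases) stood at 0.112, 0.257 and 0.338 CPM in control shoots 1, 2 and 3 and at 5.08, 22.4 and 23.7 CPM in low-sulfate shoots 1, 2 and 3. The groups did not overlap, and the low value under deficiency was that of shoot 1. Its log2 fold change was 6.10 (SE 0.695, 95% interval 4.56 to 7.64, edgeR adjusted p = 0.00421), resting on 1, 3 and 3 control footprints. Ranked by footprints per coding length among the 16514 transcripts, it moved from places 16449 to 16512 in control shoots to places 11054, 5403 and 5121 in low-sulfate shoots. The bottom control places go with its entry through the low-sulfate group.

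Sobic.005G003200.1 (chromosome 5, 1785 bases) stood at 0.446, 0.343 and 0.563 CPM in control shoots and at 2.95, 28.9 and 35.9 CPM in low-sulfate shoots. Low-sulfate shoot 1 thus stayed far below the other two, at 9.11% of their mean. The log2 fold change was 5.65 (SE 0.86, edgeR adjusted p = 0.029), and the 95% interval ran from 3.74 to 7.56 on the log2 scale. Control shoots held 4, 4 and 5 footprints on it, so the size of the rise is set by few counts.

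The 2 other rising transcripts below 1 CPM in control shoots also stayed low under deficiency. A 1446-base sequence of chromosome 10 went from 0.284 ± 0.208 to 3.99 ± 2.30 CPM (SD, n = 3 shoots a group), and a 537-base sequence of chromosome 2 from 0.281 ± 0.146 to 2.66 ± 1.03 CPM. Their log2 fold changes were 3.69 and 3.24, and they too passed the filter only through their low-sulfate counts.

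A second set combined a rise of at least 8-fold with a measurable control level. On a 939-base sequence of chromosome 1, footprints stood at 1.56, 1.72 and 2.36 CPM in control shoots and at 30.0, 91.8 and 81.3 CPM in low-sulfate shoots, a log2 fold change of 5.17. A 1398-base sequence of chromosome 1 had 2.23, 1.72 and 1.35 CPM in control shoots against 19.3, 37.1 and 28.7 CPM, a log2 fold change of 4.00 (SE 0.291) with the lowest edgeR adjusted p of all, 0.000875. A 930-base sequence of chromosome 3 was already well occupied in control shoots, at 49.0, 43.0 and 35.9 CPM, and reached 281, 761 and 535 CPM under low sulfate. In each of these, every low-sulfate shoot exceeded every control shoot by a wide margin, and shoot 1 was the lowest of its group. Per coding length, the 930-base sequence of chromosome 3 moved from places 3013 to 3801 in control shoots to places 536, 171 and 233. It went from 45.8 ± 7.06 to 565 ± 258 CPM per kilobase (SD, n = 3), which is 3.62 on the log2 scale (SE 0.320, edgeR adjusted p = 0.00147).

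The other 4 rises of 8-fold or more lay on 2 sequences of chromosome 1 and on 1 each of chromosomes 3 and 10. The 1071-base sequence of chromosome 1 rose from 17 ± 3.58 to 243 ± 103 CPM and its 903-base sequence from 13.6 ± 0.843 to 119.8 ± 59.2 CPM. The 2754-base sequence of chromosome 3 rose from 5.16 ± 1.96 to 51.5 ± 29.7 CPM, and the 1158-base sequence of chromosome 10 from 1.56 ± 0.119 to 13.9 ± 4.95 CPM. All errors are SDs over 3 shoots. In CPM, where the SD tends to grow with the mean, each had a low-sulfate SD above its control SD.

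The remaining 24 rises were between 1.69- and 4.85-fold, and 18 of the 35 had a control mean between 10 and 100 CPM. The shortest coding sequence that rose, 336 bases on chromosome 1, went from 41.6 ± 9.53 to 201 ± 46.3 CPM, with a log2 change of 2.28 (SE 0.213, edgeR adjusted p = 0.00199). Per length it rose from 124 ± 28.4 to 599 ± 138 CPM per kilobase, which placed it among the 333 most occupied sequences in every low-sulfate shoot. A 1461-base sequence of chromosome 3 had near-equal control values of 87.7, 84.8 and 83.3 CPM and stood at 206, 361 and 344 CPM under low sulfate. The smallest rise had the smallest SE of the 35. A 711-base sequence of chromosome 2 had 34.2, 34.9 and 37.5 CPM in control shoots against 57.5, 62.3 and 60 CPM, or 0.76 on the log2 scale (SE 0.118, edgeR adjusted p = 0.0326). The longest, 3399 bases on chromosome 6, rose from 222 ± 19.9 to 400 ± 47.6 CPM, a log2 fold change of 0.85.

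Both of the most heavily occupied rising sequences rose by less than the median, 2.48- and 2.41-fold, but added more to the share of footprints than all the others together. The 1446-base sequence of chromosome 3 stood at 1358, 1487 and 1947 CPM in control shoots and at 3187, 4211 and 4490.2 CPM in low-sulfate shoots, which is 1.31 on the log2 scale (SE 0.186, edgeR adjusted p = 0.0198). The 1467-base sequence of chromosome 1 stood at 1112, 717 and 835 CPM in control shoots and at 2045, 2376 and 2000.2 CPM in low-sulfate shoots, which is 1.27 (SE 0.177, edgeR adjusted p = 0.0186). Neither overlapped between groups. By footprints per length the first rose from places 87 to 142 to places 49 to 62, and the second from places 186 to 306 to places 84 to 87. Together they took 0.256% ± 0.0269 of all footprints in control shoots and 0.589% ± 0.0765 in low-sulfate shoots, and the other rising sequences took 0.125% ± 0.008 and 0.37% ± 0.0843 (SD, n = 3). The 35 rising transcripts, which were selected on this difference, thus held 0.381% ± 0.0346 of control footprints and 0.96% ± 0.159 of low-sulfate footprints.

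**Figure D2:**
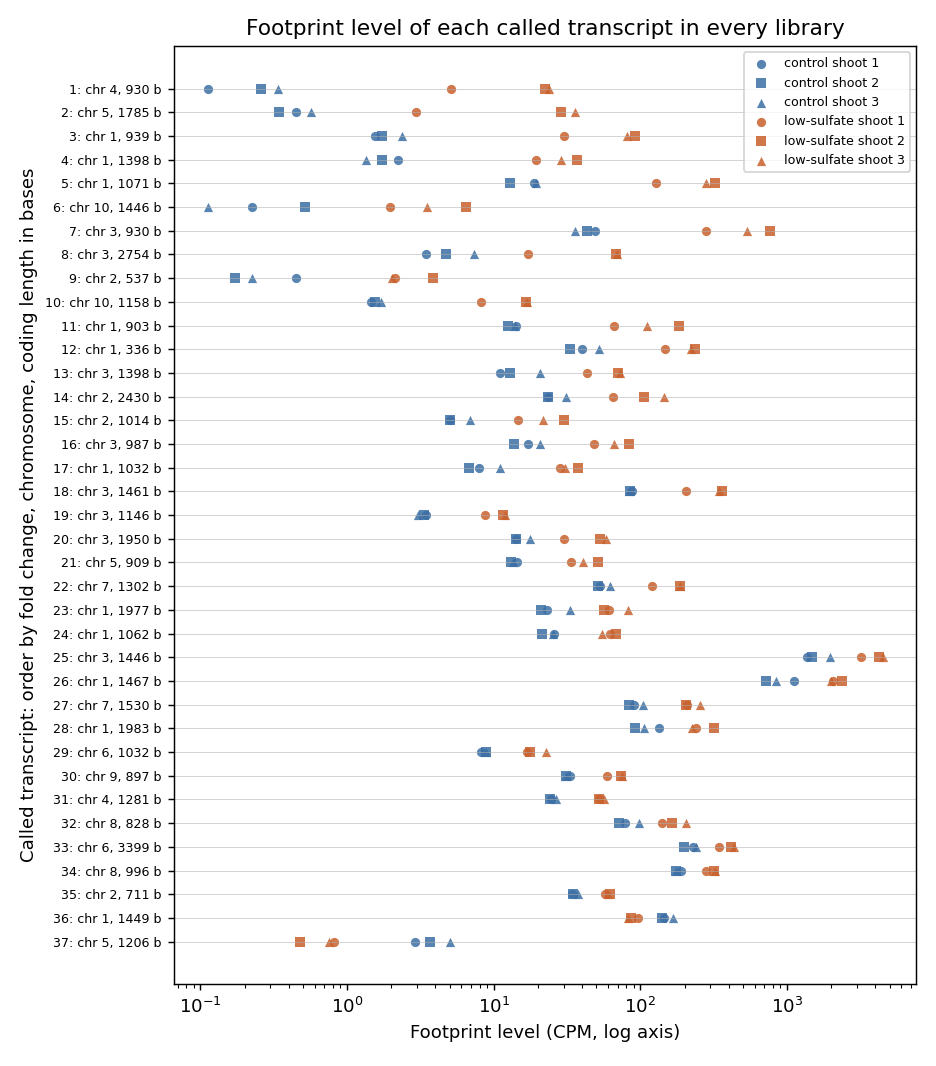
Footprint level in CPM (log axis) of the 37 called transcripts in each of the 6 libraries, in order of fold change, with chromosome and coding length in bases at the left. Control shoots (blue) and low-sulfate shoots (orange) do not overlap in any row, and low-sulfate shoot 1 (orange circle) is the lowest of its group in 29 of the 35 rising rows.

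Rising transcripts lay next to each other in 2 places, both on chromosome 1. The 1032-base and 1071-base sequences occupy adjacent rows of the deposited table, and their footprints rose by log2 fold changes of 1.91 and 3.84. A 1056-base sequence before them had no footprint in any library, and a 1038-base sequence after them did not exceed 0.819 CPM. The second pair, of 1977 and 1983 bases, is separated by a 225-base sequence without footprints and rose by 1.38 and 1.23. The 2061-base sequence that follows had 54.9, 30.1 and 52.1 CPM in control shoots and 38.8, 25.5 and 20.7 CPM in low-sulfate shoots, a log2 fold change of -0.69 (edgeR adjusted p = 0.674). How reads that match several transcripts were counted is not given in the sources used here, so values of neighbours of like length are uncertain where the sequences share reads. By chromosome, 10 of the 35 rises were on chromosome 1 and 8 on chromosome 3, where 3089 and 2480 transcripts were tested, and the share called in either direction ran from 0.0732% on chromosome 9 to 0.397% on chromosome 5.

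Footprints fell on 2 transcripts. Sobic.001G106600.1 (chromosome 1, 1449 bases) stood at 144, 141 and 168 CPM in control shoots and at 97.0, 86.5 and 82.2 CPM in low-sulfate shoots. The groups did not overlap, and the fall was to 0.585 of the control level (-0.77 on the log2 scale, SE 0.128, edgeR adjusted p = 0.0486). The call was lost with RLE factors (edgeR adjusted p = 0.0523) and with a filter of 50 counts in a group (0.0676). Sobic.005G137000.1 (chromosome 5, 1206 bases), which lay below the level set for naming transcripts and was named after its values were seen, stood at 2.90, 3.69 and 5.06 CPM in control shoots and at 0.819, 0.481 and 0.753 CPM under low sulfate. Its log2 fold change was -2.50 (SE 0.381, 95% interval -3.35 to -1.66, edgeR adjusted p = 0.029), on 5, 4 and 6 low-sulfate footprints. It passed the low-count filter only through its control counts.

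**Figure D3:**
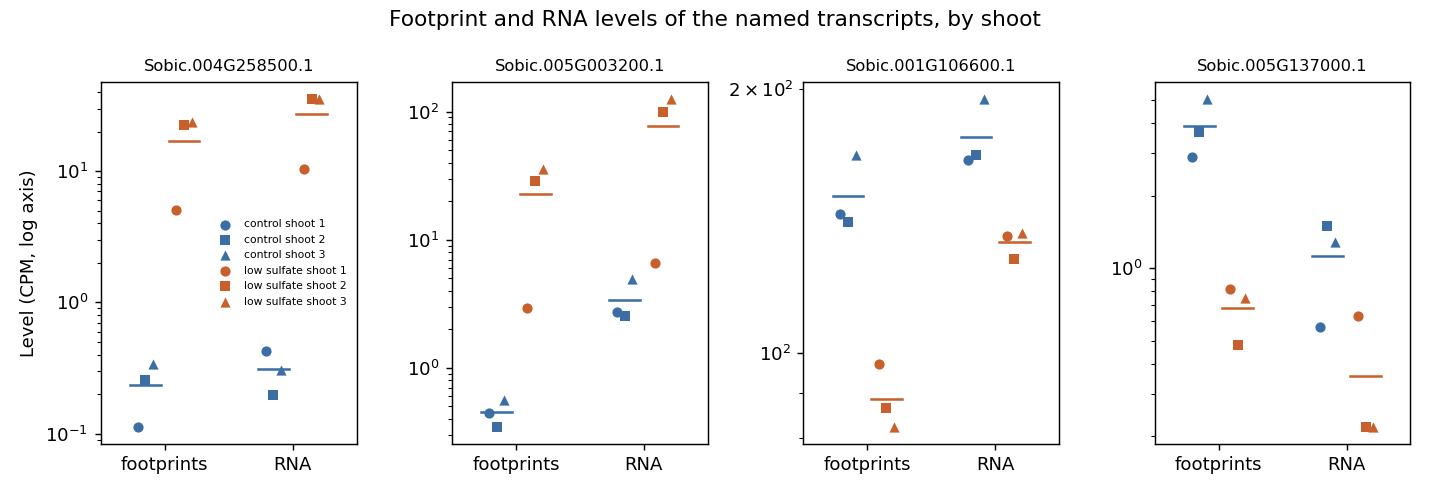
CPM (log axis, scaled separately in each panel) of the named transcripts in footprints and RNA, by shoot, with a bar at each group mean. The footprint groups are apart in all 4 panels. In Sobic.005G003200.1, low-sulfate shoot 1 lies far below the other low-sulfate shoots in both assays, and in Sobic.005G137000.1 the RNA groups overlap.

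Low-sulfate shoot 1 held lower levels of the rising transcripts than the other low-sulfate shoots. Relative to the control mean, the median log2 level of the 35 rising transcripts was 1.35 in low-sulfate shoot 1, 2.01 in shoot 2 and 1.91 in shoot 3, while the medians over all transcripts tested were -0.01, 0.00 and 0.01. Shoot 1 was the lowest of its group for 29 of the 35 and the highest for 0, although over all transcripts tested it was lowest for 33.2%. Since the groups of all called transcripts did not overlap, shoot 1 exceeded every control shoot on all 35. For the 11 transcripts that rose 8-fold or more its level was a median 42.1% of the mean of shoots 2 and 3 (range 9.11% to 72.7%), and for the 24 smaller rises 78.7% (52.1% to 101%). The RNA libraries of the same shoots showed medians of 47.2% and 75.9% for these transcripts. Shoot 1 also had the shallowest footprint library, at 6328659 counts. Its RNA library held 15825383 counts, against 18475153 in low-sulfate shoot 2 and 13995665 in low-sulfate shoot 3. The part of depth in these differences was not tested. The median SD of log2 CPM between shoots was 0.233 in control and 0.366 in low-sulfate shoots for the rising transcripts, and 0.193 and 0.23 over all transcripts.

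The changes in footprints were set beside those in mRNA, measured in the same 6 shoots from the same powder. In RNA, 127 of 20045 transcripts passed the edgeR threshold (0.634%). Since both assays used the same shoots, each transcript's values are given side by side without counting shared calls. RNA of Sobic.004G258500.1 stood at 0.309 ± 0.115 CPM in control and 27.1 ± 14.5 CPM in low-sulfate shoots (SD, n = 3), a log2 fold change of 6.43 against 6.10 in footprints, and missed the RNA threshold (edgeR adjusted p = 0.104). For Sobic.005G003200.1 RNA stood at 2.70, 2.55 and 4.96 CPM in control shoots and at 6.53, 98.9 and 126 CPM in low-sulfate shoots, so that its shoot 1 was close to the highest control shoot (log2 fold change 4.48, edgeR adjusted p = 0.342).

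Among the abundant rises, RNA of the 1446-base sequence of chromosome 3 rose by 1.39 on the log2 scale (edgeR adjusted p = 0.0192) against 1.31 in footprints, and that of the 1467-base sequence of chromosome 1 by 1.36 (edgeR adjusted p = 0.000377) against 1.27. The falling Sobic.001G106600.1 had RNA values of 166, 168 and 195 CPM in control and 136, 128 and 137 CPM in low-sulfate shoots, a log2 fold change of -0.40 that missed the threshold (edgeR adjusted p = 0.0602). RNA of Sobic.005G137000.1 was too low for the filter, at 0.568, 1.5 and 1.29 CPM in control shoots and 0.634, 0.218 and 0.219 CPM in low-sulfate shoots, and was not tested.

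Whether a footprint change differed from the mRNA change was tested in 1 model over both assays, as the treatment's effect on footprints per mRNA. It passed the edgeR threshold in 0 of 16420 cases (0%), and an unadjusted p under 0.05 was reached by 410. DESeq2 gave 0 calls (354 unadjusted), and edgeR with the shoot as a block 0 (598 unadjusted). Over the 36 called transcripts that could be tested, the log2 change ran from -0.55 to 1.19 with a median of -0.07, and 14 were positive. These values came from the fit without a shoot block, which leaves the RNA and footprint libraries of 1 shoot unpaired. There the median half-width of the 95% intervals, each taken alone, was 0.619, or about 1.5-fold. With the shoot as a block, Sobic.005G003200.1 was at 1.16 (SE 0.355), where its interval without the block was -4.11 to 6.5. How small a difference could be detected is not reported here. The 36 were selected on their footprint change, which enters this value. Without the block, the interval lay apart from 0 for 2 of the 36, where 2.5% of all 16420 had an unadjusted p under 0.05. These were a 1062-base sequence of chromosome 1, at 0.43 (0.05 to 0.81), where footprints rose from 24.2 ± 2.51 to 61.7 ± 7.14 CPM and RNA from 20.7 ± 1.61 to 39.5 ± 5.21 CPM, and Sobic.001G106600.1, at -0.37 (-0.68 to -0.06). Both had an edgeR adjusted p of 1. With the shoot as a block they were at 0.43 (SE 0.183) and -0.37 (SE 0.121).

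**Figure D4:**
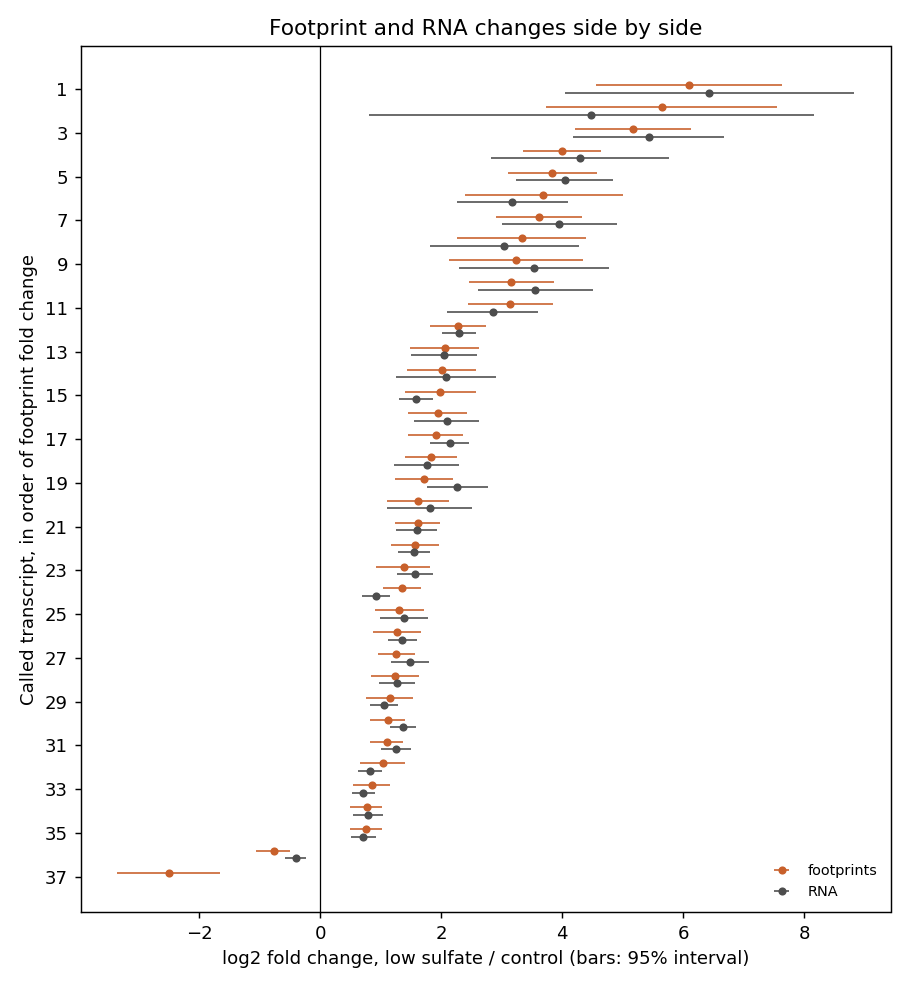
Log2 fold change (low sulfate over control) of the called transcripts in footprints (orange) and in RNA (dark grey), with 95% intervals from edgeR, in order of footprint change. The intervals of both assays overlap in all 36 rows that show both; the last transcript has no RNA value because it failed the RNA filter.

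Most of the translated transcripts differed little between treatments at this precision. Over the 16514 the quartiles of the log2 fold change were -0.154 and 0.172, and 93.4% of the estimates were under 1.5-fold in either direction. For 80.2% the 95% interval lay within a 2-fold change and for 43.9% within a 1.5-fold change. Intervals narrowed with depth up to 300 to 1000 footprints and not beyond. Of the 3090 transcripts with a mean under 30 footprints, 35.1% had an interval within 2-fold and 3 were called. Of the 3166 with 300 to 1000 footprints, 95.7% had one and 11 were called. The shares were 95.1% from 1000 to 10000 footprints and 90.6% in the 85 transcripts above that, where 47.1% were within 1.5-fold against 76.5% at 300 to 1000. Over all classes, 177 transcripts had a fitted change of at least 2-fold without being called, 63 higher and 114 lower, with a median of 25.2 footprints against 120.1 over all transcripts.

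The coding sequences with the most footprints per length all had estimates above 0, without passing the adjusted p threshold. The 20 highest by control mean per kilobase had log2 fold changes from 0.11 to 0.72 with a median of 0.28. All 20 were positive and 19 had intervals within 2-fold. None was called, where 0.224% of all transcripts were, and the groups did not overlap in 5 of the 20, where this held for 10.9% of all. Chosen on their level, they were not tested as a group. They held 14.7%, 13.8% and 14.6% of footprints in control shoots and 15.7%, 17.1% and 14.7% in low-sulfate shoots. The high value was that of low-sulfate shoot 2, without which the median was 0.13 and 19 were positive. Under library totals without scaling it was 0.17, where the median of all transcripts was -0.10.

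Coding length went with a difference between libraries. For the 2065 transcripts of 300 to 600 bases the median log2 level relative to the control mean was 0.096, 0.057 and -0.145 in control shoots 1, 2 and 3 and -0.042, 0.167 and -0.057 in low-sulfate shoots 1, 2 and 3. For the 1040 transcripts of 3000 bases or more it was -0.057, -0.031 and 0.097 in control shoots and -0.031, -0.165 and 0.088 in low-sulfate shoots. In 5 of the 6 libraries short and long sequences thus deviated in opposite directions, most in low-sulfate shoot 2 and, with the sign turned, control shoot 3; low-sulfate shoot 1 was slightly below 0 in both. The part of this in the calls was not tested.

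Few of the calls held whichever shoot was left out. Of the 35 rises, 8 kept an edgeR adjusted p under 0.05 in all 6 fits that left out 1 shoot, 6 in 5 of them, and 1 in none. The 8 were the 1398-, 336-, 1032- and 1062-base sequences of chromosome 1, the 987- and 1461-base sequences of chromosome 3, the 909-base sequence of chromosome 5 and the 1158-base sequence of chromosome 10, with log2 fold changes from 1.35 to 4.00. Sobic.004G258500.1 kept its call in 3 of the 6 and Sobic.005G003200.1 in 1, the one without low-sulfate shoot 1. Sobic.001G106600.1 kept it in 0 and Sobic.005G137000.1 in 2. None of the 37 changed sign in any of the 6 fits, which groups that do not overlap largely ensure. Leaving out control shoot 1, 2 or 3 gave 18, 11 and 22 calls in all, and leaving out low-sulfate shoot 1, 2 or 3 gave 70, 17 and 24.

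A number of unstated meaning stands in each sample's description: 3, 1 and 7 for the control shoots and 9, 13 and 15 for those on low sulfate. With the pairs 1 and 3, 7 and 9, and 13 and 15 as batches, the comparison rests on the shoots numbered 7 and 9 alone, control shoot 3 and low-sulfate shoot 1. The treatment is then 1 shoot against 1, assumed to vary as the pairs within a treatment do, and the pairing itself is not stated by the labels. In that fit 4 rises passed the threshold, the 939-, 1398- and 1071-base sequences of chromosome 1 and the 930-base sequence of chromosome 3, with log2 fold changes of 3.66, 3.83, 2.71 and 2.97. Sobic.004G258500.1 and Sobic.005G003200.1 were at 3.86 and 2.36 there and missed it (edgeR adjusted p = 0.306 and 0.894).

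**Figure D5:**
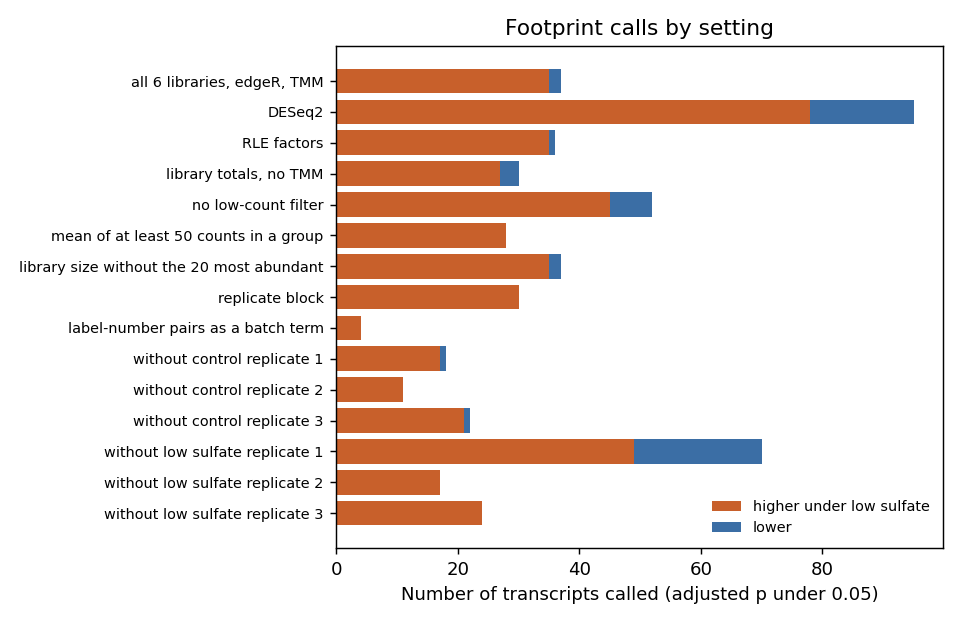
Number of transcripts called in footprints (edgeR adjusted p under 0.05, or DESeq2 where named), split into higher (orange) and lower (blue) under low sulfate, for the test with all 6 libraries and for each other setting. The count runs from 4 with these number pairs as batches to 95 with DESeq2, and rises outnumber falls in every bar.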

How the data were processed

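Both deposited tables hold raw, unscaled counts for each transcript. One counts RNA-seq reads, and the other counts P sites, the ribosomal site that holds the peptidyl-tRNA, over each coding sequence, whose length is listed. The tools listed are Bowtie2 and STAR, per the submitters' processing notes, with no role; counter, genome build and annotation were not given in the sources used here. Columns were matched to samples by title. Counts were scaled by TMM, filtered by filterByExpr (minimum count 10, minimum total 15) and tested with the robust quasi-likelihood test of edgeR 4.0.16 in R 4.3.3, with Benjamini-Hochberg adjustment over all transcripts tested. Footprints (3 against 3) and RNA were fitted separately, and the interaction over all 12 libraries. CPM uses the TMM-scaled library size; intervals cover 95%. Libraries of 1 group differed beyond sampling noise (chi-square over degrees of freedom at least 5.85), so each counts as 1 sample. RNA and footprints of a shoot share 1 powder, per the labels' protocols. Scripts were tested on simulated data.

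With no ID matched, the 26 gene lists and the cysteine and methionine share could not be computed. Without names, at most 2 rising and 2 falling IDs are printed: those with the largest change at a mean log2 CPM of at least 2, and 1 fall outside that rule. Members, lists and settings were chosen with earlier results of these data known. Replicates are separate shoots. The p-values weigh the difference between groups against the spread between shoots, as estimated with moderation across transcripts. Alternatives were DESeq2 1.42.0, other scaling, filters and library sizes, blocks, a batch term and leaving out each shoot.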

Additional observations from a re-analysis of the deposited data

How the results depend on the processing

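The 37 footprint calls became 95 with DESeq2 (82.1% higher, all 37 among them) and 4 with the numbers in the descriptions paired as batches, and ranged from 11 to 70 with 1 shoot left out; the cause was not tested. Without low-sulfate shoot 1, 70% of the 70 calls were higher, against 94.6% with all shoots. Other scaling, other filters, other library sizes and the replicate block gave 28 to 52. None of the 37 changed sign where tested, which was 34 of them under the filter of 50 counts. Since the groups of all 37 did not overlap, a change of sign was hardly possible. Sobic.004G258500.1 missed the threshold with library totals (edgeR adjusted p = 0.0595) and without the filter (0.253). Sobic.005G003200.1 missed it in both (0.267 and 0.6) and under the filter of 50 counts (0.0799). The 127 RNA calls became 259 with DESeq2, 200 without the low-count filter and 294 with the batch term, and ranged from 35 to 508 with 1 shoot left out. The interaction of assay and treatment had 0 calls in each of these settings, with 229 to 1177 at an unadjusted p under 0.05 when 1 shoot was left out. Footprint libraries of the 2 treatments with the same replicate number in the titles had correlations of deviations of -0.0219, -0.0253 and 0.105. Other combinations ran from -0.225 (control shoot 1, low-sulfate shoot 3) to 0.242 (control shoot 1, low-sulfate shoot 2). The values thus gave no sign of pairing by replicate number. With the replicate block there were 30 footprint calls, 28 of them among the 37, and 95 RNA calls. All 30 were higher under low sulfate; edgeR's adjusted p with the block was 0.123 for Sobic.001G106600.1 and 0.0783 for Sobic.005G137000.1. Depth limits rare transcripts most: under a mean of 30 footprints, 95% intervals reached a median of 0.811 (log2) to either side. The gene list counts and the cysteine and methionine result were not run, as no ID could be matched to a name or sequence.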
